A study of Mus musculus with 15 samples.

Results

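The transcripts described here are those of Egr1 and Egr2, 2 immediate-early genes of the early growth response family, read by all 3 probe sets that the array annotation assigns to them among 12654 on the array. A probe set is a group of short probes that together read a transcript. Egr1 has 98579_at and 98216_f_at, and Egr2 has 102661_at. They were measured on Affymetrix MGU74A arrays in total RNA of mouse embryonic stem (ES) cells given fetal bovine serum (FBS) for 0, 10, 30, 60 or 180 min. The 15 arrays cover an Srf-null line (E100-/-), its rescue line (E100-/- rescue) and the wild-type line E14 (E14wt), with 1 array for each line and time. How the rescue was made is not stated in the labels, and each genotype is a single line. Rescue and wild type are called the Srf-expressing lines here, after their labels: 0 probe sets carry the symbol Srf alone, so the genotype could not be checked on the array.

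Serum growth factors act through the Ras and MAP kinase cascade on the ternary complex factors Elk1, Elk3 and Elk4, which sit beside the serum response factor SRF at CArG boxes, the sequence SRF binds. A separate route through actin uses the cofactors MRTF-A and MRTF-B at the same factor. Egr1 and Egr2 are textbook targets of the first route. Both encode zinc-finger transcription factors: EGR1 is induced transiently in many cells by growth factors, and EGR2, also called Krox20, is known for its role in hindbrain patterning and in Schwann cell myelination.

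The sequence SRF binds can be seen in the Egr2 promoter, which is shown because it carries the element by which this gene is usually assigned to SRF. RefSeq (build GRCm38.p6) lists 5 Egr2 start sites, each with a window of 300 bases that holds 250 bases before the start and 50 from it on. A CArG box, written CCWWWWWWGG with W for A or T, was searched on both strands and found in 4 of the 5 windows, against 1.63% of 32851 promoter windows. Overlapping windows of neighbouring start sites share 1 box, so the 4 windows hold 2 different boxes. The first sequence is the window chr10:67537619-67537918 on the plus strand, with its box in capitals, starting 72 bases before the start site.
Egr2: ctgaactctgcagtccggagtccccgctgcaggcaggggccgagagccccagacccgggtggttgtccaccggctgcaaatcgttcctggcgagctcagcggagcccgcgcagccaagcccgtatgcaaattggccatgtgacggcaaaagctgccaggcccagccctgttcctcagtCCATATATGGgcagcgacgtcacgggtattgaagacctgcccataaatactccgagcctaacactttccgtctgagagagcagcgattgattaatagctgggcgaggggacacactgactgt

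The second sequence is the stretch chr10:67537426-67537530 on the plus strand, from the window of an upstream start site. Its capitals mark a CArG box and, on either side, the letters CCGGAA, a core bound by ETS-family proteins such as the ternary complex factors. The core on the left overlaps its own reverse complement, so both strands match there. CCGGAA was found in 1 of the 5 Egr2 windows, against 14.9% of all windows, and 0.183% of all windows hold it together with a CArG box.
Egr2 upstream: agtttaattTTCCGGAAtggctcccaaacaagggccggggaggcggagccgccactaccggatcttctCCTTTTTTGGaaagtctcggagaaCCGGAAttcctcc

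For comparison, the next lines show 30 bases around the CArG box of Actg1 (chr11:120348566-120348595, minus strand), Srf (chr17:46556225-46556254, minus strand) and Vcl (chr14:20929161-20929190, plus strand), genes known as SRF targets that encode a cytoplasmic actin, SRF itself and the adhesion protein vinculin. The Actg1 box has the same 10 letters as the first Egr2 box. The letters GCGTGGGCG and GCGGGGGCG, forms of the site that EGR proteins bind, were found in 0 of the 5 Egr2 windows, against 0.612% and 2.91% of all windows, searched on both strands. These matches describe the letters in the windows, and binding was not measured.
Actg1: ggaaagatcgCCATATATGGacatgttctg
Srf: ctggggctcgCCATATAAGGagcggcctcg
Vcl: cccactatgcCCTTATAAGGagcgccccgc

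The arrays were read as deposited linear intensities that were then quantile-normalized. Before this step the trimmed mean of an array lay between 350 and 1439, and 24.9% to 41.6% of values on an array were 0 or negative. This share followed line and time: it was 39.0%, 41.6% and 37.1% on the Srf-null arrays of 30, 60 and 180 min. It was 37.6% and 37.4% on the rescue arrays of 0 and 10 min, and 24.9% to 30.9% on all others. Normalized values under 85.0 (log2 6.41), the 40th percentile, were set to that floor, so a change against a value at the floor depends on where the floor lies. Actin control probe sets at the 3' end read higher than those at the 5' end where RNA is degraded, and their ratio was 7.53 on the wild-type array of 0 min, 4.22 on the rescue array of 0 min, and 3.83 and 2.94 on the Srf-null arrays of 60 and 0 min, against 0.847 to 2.11 on the other 11. Of 13 ES cell markers, 11 were above the floor on all arrays, and their summed intensity was 97824 to 123513 in Srf-null, 80961 to 103429 in rescue and 74804 to 118510 in wild-type cells. The 11 feeder fibroblast markers on the array summed to 2384 to 4151 in Srf-null, 2640 to 3455 in rescue and 2616 to 6446 in wild-type cells, with the collagen gene Col1a2 above the floor on no array. The 6 trophoblast markers summed to 583 to 1898 in Srf-null, 1742 to 16442 in rescue and 1258 to 6445 in wild-type cells, with Hand1 above the floor on no array. Krt18, a keratin on this list, read 157 to 532 in Srf-null, 201 to 7036 in rescue and 310 to 2133 in wild-type cells. The part of these markers in the results was not tested.

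Egr1, read by 98579_at, stayed low in Srf-null cells at every serum time and climbed step by step in both Srf-expressing lines. In Srf-null cells its normalized intensity was 248, 343, 176, 260 and 201 at 0, 10, 30, 60 and 180 min. In rescue cells it was -155, 882, 1208, 8094 and 13748, and in wild-type cells -12.5, 503, 1515, 9120 and 17551 at the same times. From 10 min on, each Srf-null value lay below both values of the same time in the other lines, and at 0 min it lay above both. All 5 Srf-null values were above the floor, against 4 of 5 in rescue and 4 of 5 in wild-type cells, whose 0 min arrays were below it. Those 2 arrays had the highest actin 3' to 5' ratios, 4.22 in rescue and 7.53 in wild type, and the part of RNA quality in their low Egr1 values was not tested. In such bulk RNA, fewer cells that express a gene and less RNA per cell cannot be told apart.

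Both Srf-expressing lines changed in the same direction after 10 min, by different amounts. Between 10 and 60 min the intensity changed 0.759-fold in Srf-null cells, 9.18-fold in rescue cells and 18.1-fold in wild-type cells. Between 10 and 180 min it changed 0.584-fold, 15.6-fold and 34.9-fold in the same order of lines. At 60 min the rescue value was 31.1 times and the wild-type value 35.0 times the Srf-null value, and at 180 min 68.5 and 87.5 times. The ratio was smaller early, with 2.57 for rescue and 1.46 for wild type at 10 min, and 6.86 and 8.61 at 30 min.

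The stepwise rise was also present before normalization. On deposited intensities 98579_at read 137, 336, 116, 134 and 186 in Srf-null cells, -209, 1033, 1225, 10245 and 13855 in rescue cells, and 4.20, 803, 930, 12596 and 17632 in wild-type cells. Of the 9558 probe sets tested, 3 rose at every step in both Srf-expressing lines on the normalized scale (0.0314%), those of Anxa1, Egr1 and Slc30a5. On the deposited scale Egr1 was the 1 probe set that did so. Names other than Egr1 here were chosen after their values were seen. Its place on the array differed in the same way: 98579_at lay between percentile 46.9 and 55.8 of an array in Srf-null cells, and at 180 min at percentile 98.7 in rescue and 99.2 in wild-type cells.

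**Figure D1:**
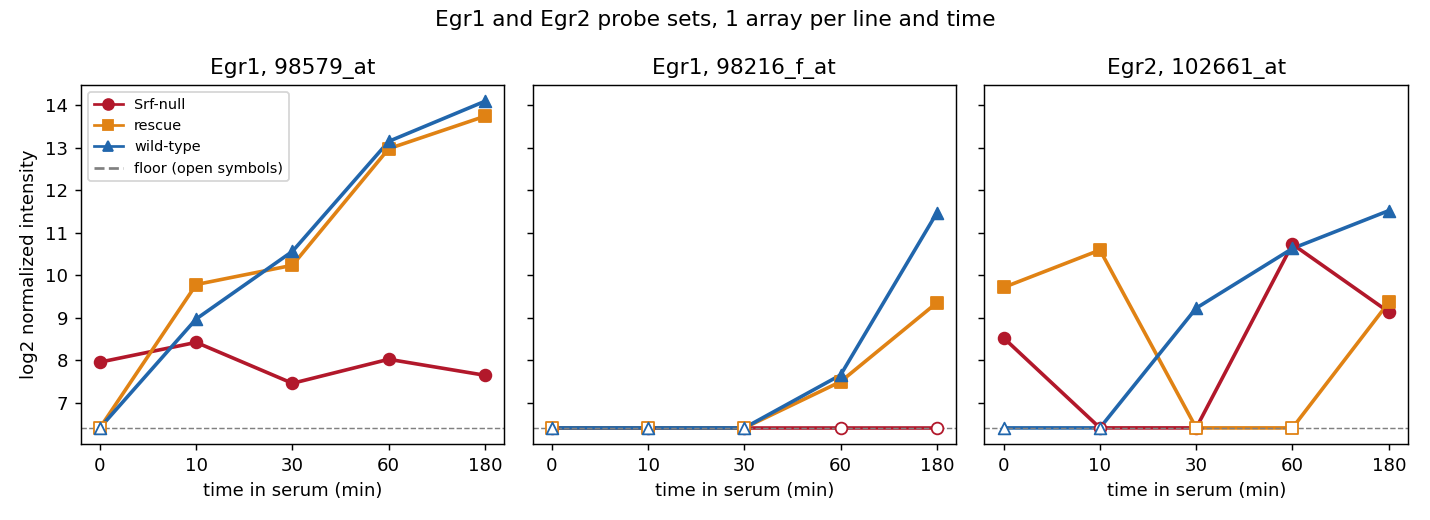
Log2 normalized intensity of the 3 probe sets against time in serum (min, evenly spaced) in Srf-null, rescue and wild-type cells, 1 array per point; the dashed line is the floor, and open symbols lie at it. Egr1 98579_at climbs from 10 min on in rescue and wild-type cells and stays between 176 and 343 (linear intensity) in Srf-null cells, whereas Egr2 gives no shared course.

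Tests of Egr1 had 1 array per line and time, so neighbouring times or lines had to stand in for replicates, and p-values measure the spread between those arrays, not between independent cultures. The first model pooled 0 and 10 min as baseline and 30 and 60 min as early, with 180 min as late, in each line. In this model and an additive one limma called 0 of 12 contrasts for 98579_at, at a Benjamini-Hochberg adjusted p under 0.05 over all 9558 probe sets. Its early response (log2 ± SE) was -0.45 ± 1.38 in Srf-null cells, 3.51 ± 1.38 in rescue cells and 4.17 ± 1.38 in wild-type cells, each with an adjusted p of 1 from limma. Leaving out single arrays gave 1.83 to 5.20 in rescue and 2.87 to 5.46 in wild-type cells, none called, with the lowest rescue value below the estimate by more than 1.5 times. Over all probe sets limma called 0.0732% in the early response of Srf-null cells and 0% in that of each Srf-expressing line, where 380 probe sets in rescue and 243 in wild type had an unadjusted p under 0.05.

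The late response of 98579_at was -0.54 ± 1.68 in Srf-null cells, 5.65 ± 1.68 in rescue cells and 6.41 ± 1.68 in wild-type cells, with limma's adjusted p at 1, 0.980 and 0.270, beside 0.0314%, 0% and 0.282% of all probe sets called. The late response in rescue cells was 0.42 with each array's share of non-positive values as a covariate, and 3.96 to 7.34 with single arrays left out, again not called. The early response of Srf-null cells minus the mean of both Srf-expressing lines was -4.29 ± 1.68 (adjusted p 0.514), the early level differed by -3.99 ± 1.19 (adjusted p 0.290) and the late level by -6.28 ± 1.68 (adjusted p 0.587), beside 0.0209%, 0.126% and 0.0105% of all probe sets called. Averaged over the 5 times, with time as a second term beside line, the Srf-null level was lower by a log2 difference of -2.73 ± 0.82 (adjusted p 0.289, limma), beside 0.136% of all probe sets called. Without the Srf-null array of 0 min this difference was -3.80, and limma's adjusted p was 0.0315. By size these differences ranked among the lowest of all probe sets, at place 16 for the early response, 4 for the early level and 5 for all times, of 9558. The residual SD of 98579_at was 1.65 (log2) in the pooled model, larger than in 98.8% of probe sets, and the pooled values of 30 and 60 min lay 6.70-fold apart in rescue and 6.02-fold apart in wild-type cells.

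A further model was added after the Egr1 values had been seen, with each time on its own and the rescue and wild-type arrays of a time as its 2 arrays of Srf-expressing cells. Its calls were made with the pattern known and are no independent support for it. In it the residual SD of 98579_at was 0.303, against a median of 0.452 over all probe sets. Each Srf-null time is 1 array in this model, so all its spread comes from rescue against wild type. SEs and p-values of contrasts with Srf-null cells therefore hold no Srf-null spread. The Srf-null level minus that of Srf-expressing cells was 1.55 ± 0.40 (log2 ± SE, limma adjusted p 0.0874) at 0 min and -0.96 ± 0.40 (adjusted p 1) at 10 min, beside 4.99% and 0.0732% of all probe sets called. It was -2.94 ± 0.40 at 30 min (adjusted p 0.0440), -5.04 ± 0.40 at 60 min (adjusted p 0.00132) and -6.28 ± 0.40 at 180 min (adjusted p 0.00387). These 3 differences were called, beside 0.46%, 2.84% and 0.492% of all probe sets called at 30, 60 and 180 min. The calls at 60 and 180 min were kept in all 21 alternative settings each, with adjusted p between 0.000526 and 0.0342 at 60 min and between 0.000423 and 0.0382 at 180 min. The call at 30 min was kept in 11 of 21.

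In the Srf-expressing lines of this model, 98579_at was higher at 60 min than at 10 min by 3.69 ± 0.32 (log2 ± SE, limma adjusted p 0.0346) and at 180 min by 4.54 ± 0.32 (adjusted p 0.0123). These were 2 calls beside 0.0418% and 0.0314% of all probe sets. At 30 min the difference from 10 min was 1.02 ± 0.32 (adjusted p 1), not called, beside 0.0209% of all probe sets. Against 0 min, where both Srf-expressing arrays lay at the floor, the fitted differences at 10, 30, 60 and 180 min were 2.97, 3.99, 6.66 and 7.51, all 4 called by limma (adjusted p 0.0413, 0.0140, 0.00157 and 0.00143, beside 0.157%, 0.157%, 0.314% and 0.126% of all probe sets). They depend on the floor, and with a floor at the 50th percentile they were 1.54, 2.57, 5.23 and 6.09; 2 equal values at the floor also add nothing to the spread. Against 0 min the calls at 60 and 180 min were kept in all 21 alternative settings, that at 30 min in 16 (adjusted p between 0.00751 and 0.0843) and that at 10 min in 10 (adjusted p between 0.0148 and 0.144). Leaving out the wild-type array of 30 or 60 min ended the calls at both 10 and 30 min, and that at 10 min was also lost without the wild-type array of 180 min or any rescue array from 10 min on.

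The change itself differed by genotype in this model: from 10 to 60 min the Srf-null change minus that of Srf-expressing cells was -4.09 ± 0.56 (log2 ± SE, limma adjusted p 0.0230), beside 1.36% of probe sets called. From 10 to 180 min it was -5.32 ± 0.56 (adjusted p 0.0381), beside 0.136% called, and from 10 to 30 min -1.99 ± 0.56 (adjusted p 0.545), beside 0.209% called. The calls of the rises from 10 to 60 and 180 min were kept in 9 and 15 of 22 alternative settings, with adjusted p between 0.00929 and 0.174 and between 0.00449 and 0.128. Those of the differing change were kept in 15 and 10 of 20, with adjusted p between 0.00963 and 0.362 and between 0.00543 and 0.315. All 4 kept their sign in every setting that gave a value. The differing change rests on single Srf-null arrays of a single line, whose spread was not measured. Leaving out the rescue or the wild-type array of 60 min ended all 4 calls, and also that of the level difference at 30 min. The arrays of 30 min in either Srf-expressing line likewise ended the calls of both rises, of the level difference at 30 min and of the differing change to 180 min. Without the array of 180 min the rise to 60 min and the level difference at 30 min lost their calls in either line, as did the differing change to 180 min for wild type, and without the array of 0 min of either line the rise to 60 min lost its call.

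**Figure D2:**
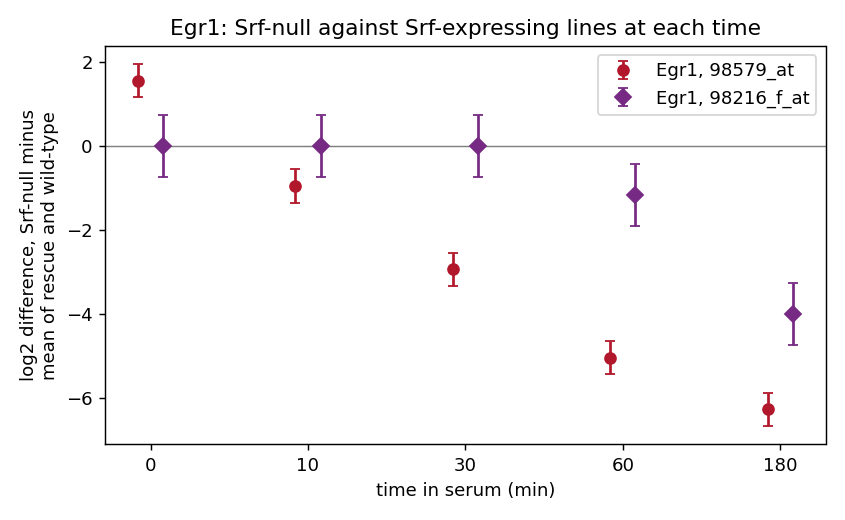
Log2 level of the 2 Egr1 probe sets in Srf-null cells minus the mean of rescue and wild type (y axis) at each time in serum (x axis, min, evenly spaced); bars are the SE of the model by time, with 1 Srf-null array and 2 arrays of Srf-expressing cells at each time. The bars come from the spread between rescue and wild type alone. For 98579_at the points run from 1.55 at 0 min to -6.28 at 180 min, and for 98216_f_at, whose 5 Srf-null values all lie at the floor, the points can only lie at or below 0.

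Rescue and wild-type cells were also set against each other. For 98579_at the log2 difference, rescue minus wild type, was 0.81 at 10 min, -0.33 at 30 min, -0.17 at 60 min and -0.35 at 180 min, with both at the floor at 0 min. The early level differed by -0.25 ± 1.38 (log2 ± SE, limma adjusted p 1) in the pooled model, beside 0% of probe sets called, and an SE of this size leaves room for a difference of more than 2-fold in either direction. The single-array differences were smaller than those of either line from the Srf-null line at 30, 60 and 180 min.

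The second Egr1 probe set, 98216_f_at, was above the floor on 4 arrays, those of 60 and 180 min in Srf-expressing cells. Its normalized intensity was below 0 on all 5 Srf-null arrays, from -171 to -17.6. In rescue cells it was -110, -197, -135, 181 and 655 at 0, 10, 30, 60 and 180 min, and in wild-type cells -173, -123, 28.6, 202 and 2841. The 4 arrays above the floor are the same 4 on which 98579_at was highest, at 8094 or more, so on the other 11 arrays the 2 probe sets could not be compared. The annotation gives no accession for 98216_f_at, and its suffix _f_at marks probes that Affymetrix assigned to more than one related sequence, so part of its signal may come from other transcripts.

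The 2 Egr1 probe sets moved the same way but not by the same amount. Between 60 and 180 min 98216_f_at changed 3.63-fold in rescue cells and 14.1-fold in wild-type cells on normalized values, against 1.70-fold and 1.92-fold for 98579_at. On deposited values the same changes were 1.96-fold and 3.39-fold for 98216_f_at and 1.35-fold and 1.40-fold for 98579_at. Over the 15 arrays their log2 values had a Pearson r of 0.771, a description over arrays that share lines and times and over many values at the floor. Rescue and wild type, close in 98579_at at 180 min, differed by -2.12 (log2, rescue minus wild type) in 98216_f_at.

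This probe set passed the filter on low values only through those 4 arrays, so its direction against Srf-null cells is fixed by the filter. Differences from Srf-null cells and their SEs, plotted by time or listed under other settings, are therefore descriptions and cannot test that direction. The other 11 of its 15 values equal the floor, which narrows the fitted spread, and the late arm of a line is 1 array. In the pooled model its late response was 2.95 ± 0.59 (log2 ± SE, limma adjusted p 0.437) in rescue cells and 5.06 ± 0.59 (adjusted p 0.0196) in wild-type cells. The wild-type value passed the threshold, beside 0.282% of all probe sets, and is given as a description for these reasons. The wild-type call was lost on values as deposited (4.11, adjusted p 0.703) and without all 0 min arrays (5.06, adjusted p 0.103). In the model by time 0 of 15 contrasts were called for this probe set, where 1 array of 180 min lay 2.12 above the other. The contrasts with Srf-null cells among them cannot test a difference whose direction is fixed.

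**Figure D3:**
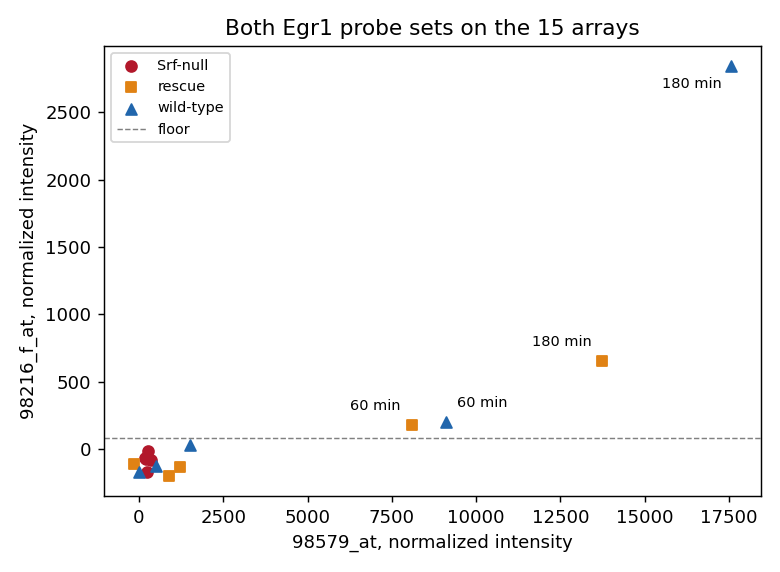
Normalized intensity of Egr1 98216_f_at (y axis) against 98579_at (x axis) on the 15 arrays, both linear, with the floor of 98216_f_at dashed and the 60 and 180 min arrays of rescue and wild-type cells labelled. The 4 labelled arrays are the ones above the floor, and the wild-type array of 180 min, at 2841, stands apart in 98216_f_at.

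Egr2 showed no course that lines or times shared. Its probe set 102661_at read 369, -249, -98.7, 1704 and 563 at 0, 10, 30, 60 and 180 min in Srf-null cells. It read 842, 1549, -336, -131 and 659 in rescue cells, and -118, -249, 600, 1589 and 2945 in wild-type cells. Each line was above the floor on 3 of its 5 arrays, but at different times: at 0, 60 and 180 min in Srf-null, at 0, 10 and 180 min in rescue, and at 30, 60 and 180 min in wild-type cells.

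In rescue cells the values of 30 and 60 min were the ones below the floor, and in wild-type cells those of 0 and 10 min. The early response of Egr2 was 1.10 ± 1.28 (log2 ± SE) in Srf-null cells, -3.75 ± 1.28 in rescue cells and 3.52 ± 1.28 in wild-type cells, and limma called none (adjusted p 0.878, 1 and 1). The responses of rescue and wild type differed by -7.27 ± 1.81 (unadjusted p 0.00299, adjusted p 1 from limma), beside 0% of probe sets called. At single times rescue minus wild type was 3.31, 4.19, -2.82, -4.22 and -2.16 (log2) at 0, 10, 30, 60 and 180 min. The last step in wild type also turned with the scaling, 1.85-fold on normalized and 0.543-fold on deposited values between 60 and 180 min.

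Taking the rescue and wild-type arrays of a time as a pair gave Egr2 a residual SD of 2.43 (log2), larger than in 99.9% of probe sets tested. In that model limma called 0 of 15 contrasts for Egr2, with a lowest adjusted p of 0.743 and 0 at an unadjusted p under 0.05. Its late response in wild-type cells in the pooled model was 5.11 ± 1.57 (adjusted p 0.363). Between Egr1 98579_at and Egr2 the Pearson r over the 15 arrays was 0.329. The SE of these contrasts is too large to show whether Egr2 responded to serum or differed between lines at this number of arrays.

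Transcripts with a pattern like Egr1 were ranked by the Pearson r of log2 values over the 15 arrays. The 6 nearest named transcripts to 98579_at were Atf3 (r 0.893), a stress- and serum-induced transcription factor, Ccn1 (0.866), a matricellular protein, Btg2 (0.844), an antiproliferative immediate-early gene, Stau1 (0.841), an RNA-binding protein, Ina (0.839), a neuronal intermediate filament, and Krt18 (0.838), a keratin. Over 8041 named transcripts compared the median r was -0.01 and the 99th percentile 0.682. All points share 3 lines and 5 times, so r describes these arrays alone.

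The nearest transcripts differed in how far they followed Egr1. Atf3 was below the floor on all 5 Srf-null arrays and reached 463 and 1487 at 60 and 180 min in rescue cells, and 309 and 1225 in wild-type cells. Ccn1 was above the floor on 1 Srf-null array, at 196 (180 min), and reached 1013 and 1761 in rescue and 1314 and 1861 in wild-type cells at 60 and 180 min. Btg2, by contrast, was well above the floor everywhere, at 2680 to 3800 in Srf-null cells, and at 180 min at 9967 in rescue and 7082 in wild-type cells. Stau1 was at most 221, close to the floor on every array, so its likeness rests on small values.

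**Figure D4:**
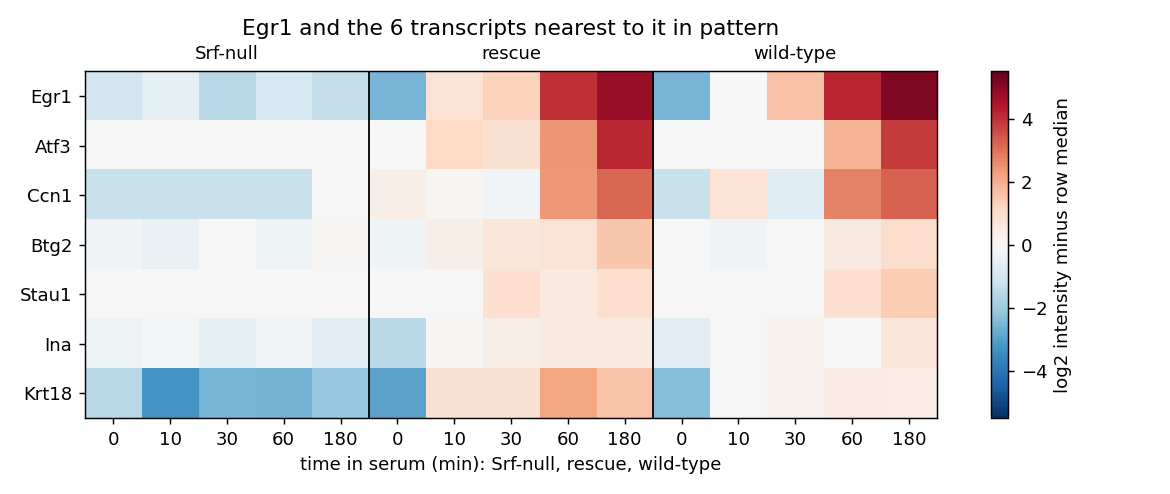
Log2 intensity minus the median of the row for Egr1 98579_at and the 6 transcripts with the highest Pearson r to it, by line and time in serum (min), with the colour bar in log2 units. Egr1, Atf3 and Ccn1 have their highest values at 60 and 180 min in rescue and wild-type cells, and Stau1, Btg2 and Ina vary less.

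For Egr2 the 6 nearest named transcripts were Anp32e (r 0.758), Ube2v2 (0.739), Wdr92 (0.729), Spsb2 (0.712), Ncbp1 (0.684) and Mrpl50 (0.676), against a 99th percentile of 0.546. None is a listed immediate-early gene, and Anp32e, a histone chaperone, varied between 3135 and 5184 over all arrays, less than 2-fold. Each promoter window of the nearest transcripts of Egr1 that was in the table, 7 windows of 6 genes, held 0 CArG boxes. Of all promoter windows 1.63% held a box, so a count of 0 in 7 says nothing about these genes. Sequence outside the windows was not searched.

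Other genes of the pathway came from 6 lists, with calls counted over all probe sets and all 27 contrasts. Of 36 immediate-early factors and inhibitors, 29 were tested, and in the contrast of Srf-null with Srf-expressing cells at 60 min 1 was lower and 0 higher, with a median log2 difference of -0.12 against 0 for all probe sets. With 2.84% of all probe sets called in that contrast, 1 of 29 is near the background and says nothing about the list. That 1 was Fosb, an AP-1 subunit. At 0, 10, 30, 60 and 180 min it read 2042, 1311, 1413, 1621 and 1571 in Srf-null cells. It read 1455, 1402, 1250, 4956 and 4685 in rescue and 1947, 1250, 1347, 6059 and 5913 in wild-type cells. In Srf-expressing cells Fosb was higher at 60 than at 0 min by 1.70 ± 0.21 (log2 ± SE, limma adjusted p 0.0430). This was a call, beside 0.314% of all probe sets, and the part of RNA quality at 0 min was not tested. Its Srf-null level at 60 min was lower by a log2 difference of -1.76 ± 0.25 (SE, limma adjusted p 0.0172), and its rise from 10 to 60 min in Srf-expressing cells, 2.05 ± 0.21 (adjusted p 0.0663), was not called. Fosl1, another AP-1 subunit, was higher at 180 min than at 0 and 10 min within Srf-null cells, by 1.99 ± 0.23 (limma adjusted p 0.0418, pooled model), beside 0.0314% of probe sets called. Its late response in rescue cells was 1.53 ± 0.23, not called. The late level of Fosl1 in Srf-null minus Srf-expressing cells, 1.22 ± 0.23, was not called either.

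Fos, the best known gene of this class, lay between -40.1 and 523 and was above the floor on 11 of 15 arrays, with a change from 10 to 60 min of 0.73 ± 0.78 (log2 ± SE, limma adjusted p 1) in Srf-expressing cells. Ier2 and Junb differed from 10 to 60 min by 1.50 ± 0.27 (limma adjusted p 0.582) and 2.31 ± 0.98 (adjusted p 1) in Srf-expressing cells, not called. Both also rose from 10 min on in Srf-null cells, where Ier2 read 4909, 8653 and 14896 at 10, 60 and 180 min. Junb read 1602, 46.3, 830 and 1028 there at 0, 10, 60 and 180 min, below the floor at 10 min. Of 8 EGR relatives and partners 5 were tested and 0 called in any of the 27 contrasts of limma, beside 0% to 4.99% of all probe sets per contrast, too few members for a count of 0 to say anything. Among them Nab2, an EGR-induced corepressor that limits EGR activity, had 278 to 435 in Srf-null, 151 to 524 in rescue and 286 to 353 in wild-type cells. Its change from 10 to 60 min in Srf-expressing cells was 0.04 ± 0.48 (limma adjusted p 1).

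Genes upstream gave few calls. Of 22 genes on the route from serum to the ternary complex factors 13 were tested, and the 1 called was the adaptor Shc1, lower in Srf-null than in Srf-expressing cells at 0 min (-1.98 ± 0.25 log2, limma adjusted p 0.00748), where 4.99% of all probe sets were called. Elk4, a ternary complex factor chosen here after its values were seen, was not called but had a large difference between Srf-null and Srf-expressing cells, -2.34 ± 0.54 (log2 ± SE, limma unadjusted p 0.00388, adjusted p 0.281) at 30 min and -2.08 ± 0.54 (unadjusted p 0.00698, adjusted p 0.137) at 60 min. Of 6 genes of the MRTF route 5 were tested, and Actg1 was lower in Srf-null cells at 60 min (-2.10 ± 0.28, limma adjusted p 0.0128, beside 2.84% of all probe sets called). Actg1 was also higher at 10 than at 0 min in Srf-expressing cells, by 2.004 ± 0.23 (limma adjusted p 0.0478, beside 0.157% called). The actin 3' to 5' ratios were 7.53 in wild type and 4.22 in rescue at 0 min, and 0.847 and 0.989 at 10 min. On the Srf-null array of 60 min the ratio was 3.83. The part of RNA quality in these Actg1 differences was not tested. Mrtfa, also named after its values were seen, differed by -2.02 ± 0.41 (limma adjusted p 0.0667) at 60 min, not called. Actb, another cytoplasmic actin, differed between Srf-null and Srf-expressing cells by -1.22 ± 0.49 (limma adjusted p 0.809) at 30 min, 0.83 ± 0.49 (adjusted p 0.541) at 60 min and -1.74 ± 0.49 (adjusted p 0.408) at 180 min, none called.

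Genes reported elsewhere as targets of EGR1 or EGR2 gave few calls. Of 28 listed for EGR1, 21 were tested, and in the change from 10 to 60 min of Srf-expressing cells 0 were called, with a median of 0.27 (log2) against 0 for all probe sets, of which 0.0418% were called. Igf2, a growth factor gene, was lower in Srf-null than in Srf-expressing cells, averaged over the 5 times, by -4.92 ± 0.73 (log2 ± SE, limma adjusted p 0.0262), beside 0.136% of probe sets called. At 30 min the difference in Igf2 was -6.43 ± 0.73 (limma adjusted p 0.0237, beside 0.46% called). Within Srf-expressing cells Igf2 was higher at 10 than at 0 min by 6.33 ± 0.60 (limma adjusted p 0.0263, beside 0.157% called). From 0 to 30 min it rose there by 6.43, so the Srf-null level at 30 min equalled the Srf-expressing level at 0 min. The same equality held at 10, 60 and 180 min, as it does for values set to the floor. With Srf-null values at the floor, the filter on low values fixes the direction of these Igf2 differences. Their sizes depend on where the floor lies, so they are descriptions and cannot test that direction. Both Srf-expressing arrays of 0 min had the highest actin 3' to 5' ratios, 7.53 and 4.22. The part of RNA quality in the Igf2 differences was not tested. Id3 was lower in Srf-null cells at 0 min, by a log2 difference of -3.73 ± 0.69 (limma adjusted p 0.0307). Of 13 genes listed for EGR2, 9 were tested, and the 1 called was Mbp, a myelin gene, lower in Srf-null cells at 0 min (-3.30 ± 0.49, limma adjusted p 0.0147). At 0 min 4.99% of all probe sets were called, or 477, against 28 to 816 under other settings, so single calls there, such as those of Id3 and Mbp, say little about these lists.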

How the data were processed

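Total RNA of 15 samples (3 lines, 5 times) was read on 1 array each. The table the authors deposited holds linear intensity values; the software, background correction and scaling are not stated in its labels. Values were quantile-normalized, set to a floor at the 40th percentile (85.0), taken to log2, and kept where 2 or more of 15 arrays exceeded the floor, which left 9558 probe sets without 66 controls. Limma 3.58.1 in R 4.3.3 (lmFit, eBayes with intensity trend) was fitted on all of them, with Benjamini-Hochberg adjustment and a call under 0.05. Models were line by phase (6 residual degrees of freedom), line plus time (8) and, added after the values were seen, genotype by time (5). Scripts were tested on simulated data.

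Members, lists and tests were chosen with earlier results of these data known. Named were all Egr1 and Egr2 probe sets, the 6 nearest by Pearson r, up to 4 called members of each list, and Fos, Fosb, Junb, Ier2, Nab2, Actb and Gapdh; Gapdh had no probe set with 1 symbol. Symbols came from the platform annotation (10298 probe sets with 1 symbol, 363 with several, 1993 not listed), updated through gene identifiers. Alternatives were other scalings, floors, filters and covariates, and leaving out arrays. The number of arrays limits the precision.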

Additional observations from a re-analysis of the deposited data

Results flagged for a closer look

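Among the 5 wild-type arrays, Egr1 98216_f_at at 180 min stood apart from the others: its gap to the next value was 0.876 of the whole range of normalized intensity. There were 9 such ratios computed, so a large gap among them is a description and not a test. The 5 arrays are different times in serum, not replicates.

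For Egr1 98579_at, the change from 10 to 60 min in Srf-null cells minus that in Srf-expressing cells was -4.09 (log2), and the change from 10 to 180 min -5.32. Both tests come from the model that was added after the values had been seen, and the same comparison of early responses in the pooled model, -4.29, had an adjusted p of 0.514 from limma.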

How the results depend on the processing

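All values are log2 differences unless named otherwise. For Egr1 98579_at 499 of 573 values under alternatives kept their direction and their side of the threshold, 61 lost and 1 gained a call, and 12 turned; for 98216_f_at it was 360 of 384 (2 lost, 15 gained, 7 turned), and for Egr2 249 of 259 (10 turned). Egr2 was counted without single values in the model by time, where limma called 0 of 15 contrasts in each of 22 alternatives and 11 contrasts changed sign in at least 1 of them. A floor at the 30th percentile was not run, since it lay at -10.9 and has no log.

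In the model by time of 98579_at the rise from 10 to 60 min lost its call with arrays scaled to a common 75th percentile (3.40), on deposited values (3.64), with a floor at the 50th percentile (3.69), without all 0 min arrays (3.69) and with a covariate, each array's share of non-positive values (3.99), and ranged from 3.28 to 4.10 when arrays were left out singly. The rise from 10 to 180 min lost it with the 75th percentile (5.08), deposited values (4.10) and the covariate (4.78), and ranged from 4.14 to 4.95. The Srf-null difference at 30 min lost it with the 75th percentile (-3.66), deposited values (-3.21), the 50th-percentile floor (-2.57) and the covariate (-3.54), and ranged from -3.11 to -2.78. The differing change from 10 to 60 min lost it with the 75th percentile (-4.35), deposited values (-4.97) and the covariate (-5.11), and ranged from -4.49 to -3.68. That from 10 to 180 min lost it with the 75th percentile (-6.38), deposited values (-4.95), the 50th-percentile floor (-5.13), no intensity trend (-5.32) and the covariate (-6.06), and ranged from -5.73 to -4.91. The cause of these losses was not tested. For the Srf-null level over all times, leaving out single arrays gave -3.80 to -1.85.

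With the covariate, values of the pooled model turned. The share of non-positive values was highest on the Srf-null arrays of 30, 60 and 180 min and the rescue arrays of 0 and 10 min. Its part therefore cannot be told apart from that of line and time. For 98579_at the early response became 4.46 in Srf-null and -1.58 in rescue cells, the late Srf-null response 2.99, the difference of early response 3.37 and the early level difference 2.18. For 98216_f_at the early rescue response became -0.47, the difference of early response 0.94 and the early level difference 0.64. For Egr2 the early response became -3.21 in Srf-null and 0.74 in rescue cells, the late one -1.44 and 3.81, the difference of early response -5.53 and the early level difference -5.03. The late wild-type response of 98216_f_at lost its call on deposited values (4.11) and without 0 min arrays (5.06). Leaving out single arrays turned rescue minus wild type for 98579_at in the early response (-2.34 to 1.03) and the early level (-1.62 to 1.12; 0.05 on deposited values), and for 98216_f_at in both (-0.70 to 0.54). For Egr2 it turned the early Srf-null response (-1.06 to 3.27), the difference of early response (-0.95 to 3.38), the early level difference (-1.76 to 2.56) and the level over all times (-1.09 to 0.10). Of the 6 nearest transcripts, 1 stayed with Spearman's rank correlation and 2 on the 12 arrays from 10 min on, for Egr1 and for Egr2 alike. The additive model holds time, the number that lines share, as a replicate block. An alternative without the block was added after the data were seen. In it the Srf-null level over all times was -2.73 for 98579_at, -1.03 for 98216_f_at and -0.43 for Egr2. The SEs were 1.18, 0.71 and 1.01, and there was no call either way. For 98216_f_at the direction is fixed by the filter, so its value is a description. Counts of calls over all probe sets moved widely, for example 271 in the Srf-null difference at 60 min, against 11 to 442 under other settings and 180 to 440 with single arrays left out.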
